A study of Arabidopsis thaliana with 24 samples.

Results

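The ATG8 family of Arabidopsis thaliana consists here of 9 loci, ATG8A (AT4G21980_at), ATG8B (AT4G04620_at), ATG8C (AT1G62040_at), ATG8D (AT2G05630_at), ATG8E (AT2G45170_at), ATG8F (AT4G16520_at), ATG8G (AT3G60640_at), ATG8H (AT3G06420_at) and ATG8I (AT3G15580_at), out of the 27827 loci measured. The identifiers are probe sets, each the locus name with a suffix. They were chosen by locus as the complete named family, so no measured value decided which of them entered. The family itself was taken up with earlier results of these data known, and which values prompted that is not recorded. Its values are therefore given as a description, without p-values of single members. Statements that a member passed a threshold, and counts of such members, belong to that description and are no test of the family. The RefSeq gene table of assembly TAIR10.1 lists AT3G15580 under the symbol APG8H with ATG8I as a synonym, and AT3G06420 under ATG8H. Throughout, ATG8H means AT3G06420 and ATG8I means AT3G15580.

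ATG8 is a small ubiquitin-like protein that is joined to the lipid phosphatidylethanolamine on the growing autophagosome, the vesicle that carries cytoplasmic cargo to the vacuole. The protease ATG4 trims the C-terminus of most ATG8 proteins, ATG7 activates them, ATG3 passes them to the lipid, and the ATG12, ATG5 and ATG16 proteins assist. Membrane-bound ATG8 then docks cargo receptors such as NBR1. In Arabidopsis, ATG8H and ATG8I form a clade of their own, and their proteins end at the glycine that ATG4 exposes in the others, so they can be joined to the lipid without trimming.

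Polysomal RNA, which is RNA recovered with several ribosomes bound, and total RNA were each prepared from developing seeds of the accession Col-0 at 4 stages, 12, 15, 18 and 20 days past pollination (DAP). The 8 combinations of fraction and stage had 3 arrays each, which made 24 one-colour arrays with biotin label. All plants were untreated Col-0, and a replicate was the pooled material of 8 plants from a blocked planting. The question addressed is how transcript levels and the polysomal fraction of transcripts moved through seed maturation.

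The values were log2 levels made by RMA, which subtracts background, normalizes the arrays and summarizes the probes of each set, with 1 probe set per locus. One unit is a doubling, and levels were not compared between loci because probes differ in response. The 6 arrays of 12 DAP had a narrower spread of values over loci, with an SD of 1.39 to 1.71, than the 18 later arrays, with 2.13 to 2.43. Their replicates correlated at r = 0.739 to 0.851, against 0.955 to 0.99 in the later groups, and the median replicate SD per locus was 0.532 to 0.567, against 0.175 to 0.301. For that reason 12 DAP arrays entered only the comparisons that needed them. None of the 9 loci shared its values with another locus on all arrays, but cross-hybridisation between family members was not tested. Replicate 3 of total RNA at 18 DAP was the lowest of its 3 replicates for 8 of the 9 members. The 5 seed markers CRA1, OLEO1, SESA3, EM6 and ABI3 averaged 10.6 to 11.6 on the log2 scale on every array.

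**Figure D1:**
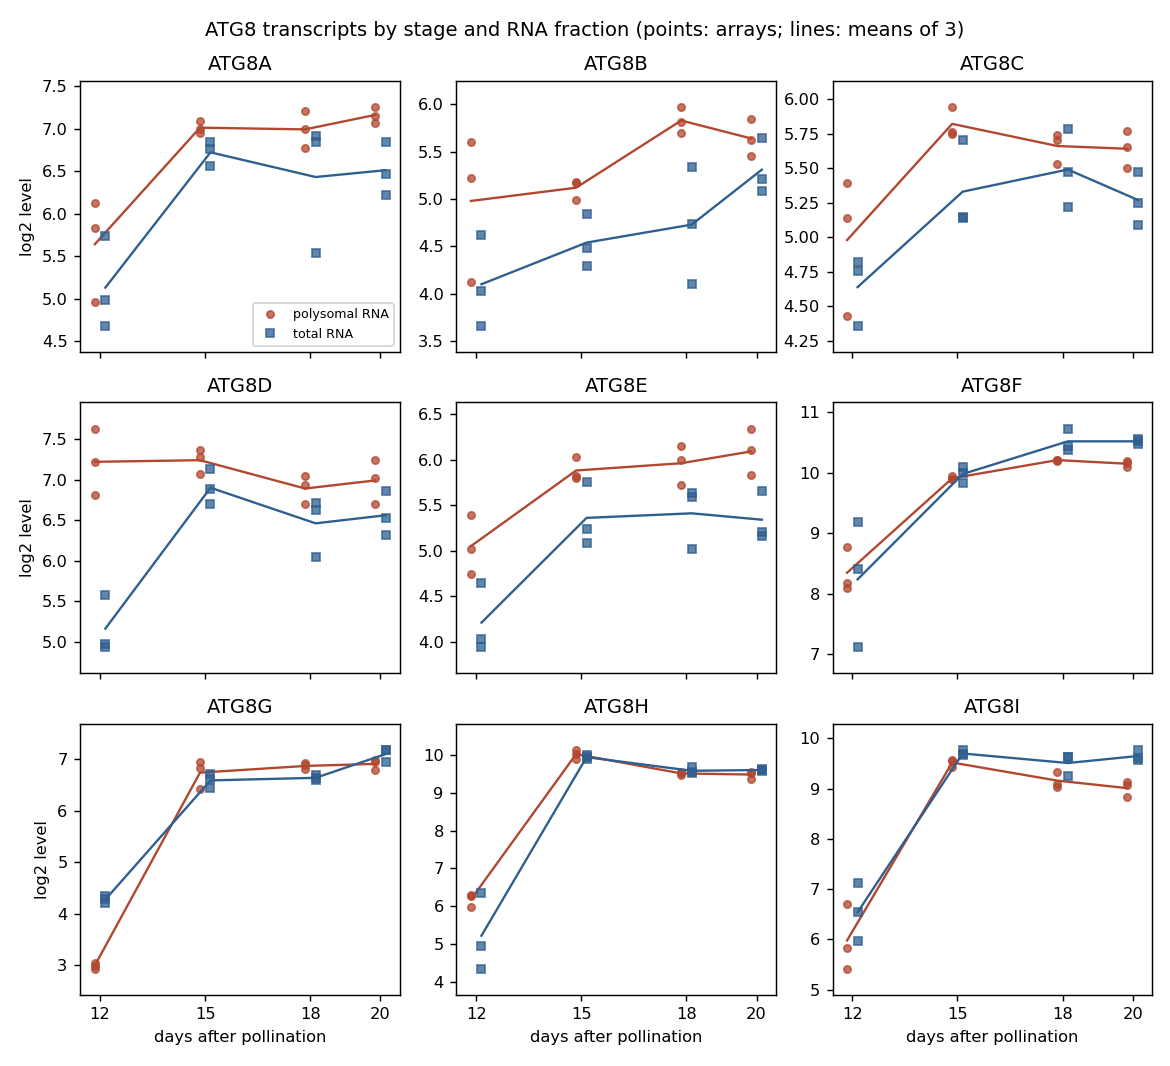
Log2 level of each ATG8 transcript (vertical axis, own scale per panel) against days after pollination for polysomal RNA (circles) and total RNA (squares); points are single arrays and lines join the means of 3. ATG8G, ATG8H and ATG8I lie far lower at 12 DAP than at any later stage in both fractions, while ATG8D in polysomal RNA and ATG8B in both fractions show 12 DAP values that overlap those of 15 DAP.

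ATG8H, one of the members that need no ATG4 trimming, had the greatest early difference of the family as deposited, in polysomal RNA by less than its error over ATG8G. In polysomal RNA its log2 levels were 9.90, 10.13 and 10.03 at 15 DAP, against 6.27, 6.30 and 5.98 at 12 DAP. In total RNA they were 9.88, 10.00 and 9.94 at 15 DAP, against 6.36, 4.94 and 4.35 at 12 DAP. In both fractions the lowest 15 DAP array lay more than 3 log2 units above the highest 12 DAP array. The log2 difference was 3.84 ± 0.29 (SE, 3 arrays per group) in polysomal RNA, a 14.3-fold higher level, and 4.72 ± 0.48 in total RNA, a 26.4-fold higher level.

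ATG8I, the other member of that clade, followed the same course. Its log2 levels in polysomal RNA were 9.57, 9.56 and 9.44 at 15 DAP, against 6.70, 5.42 and 5.82 at 12 DAP. Total RNA gave 9.69, 9.76 and 9.66 at 15 DAP, against 5.97, 6.54 and 7.12 at 12 DAP. The stages did not overlap in either fraction, and the 12 DAP arrays were spread over more than 1 log2 unit. The log2 difference was 3.54 ± 0.37 in polysomal RNA, 11.6-fold, and 3.16 ± 0.37 in total RNA, 8.92-fold.

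ATG8G, a member of the main clade, also rose steeply in the same interval. Its polysomal log2 levels were 6.43, 6.95 and 6.83 at 15 DAP, against 2.94, 2.99 and 3.05 at 12 DAP. Its total RNA levels were 6.62, 6.72 and 6.44 at 15 DAP, against 4.21, 4.28 and 4.34 at 12 DAP. Its 12 DAP replicates lay close together, with SDs of 0.056 in polysomal and 0.067 in total RNA. Those of ATG8I were scattered in both fractions and those of ATG8H in total RNA, while ATG8H in polysomal RNA had an SD of 0.18. The log2 difference was 3.74 ± 0.30 in polysomal RNA, 13.3-fold, and 2.32 ± 0.30 in total RNA, 4.98-fold. The deposited values carry no detection call, so whether the polysomal 12 DAP signal stood above background is not known.

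ATG8F changed less on the log2 scale. It had 9.90, 9.94 and 9.89 at 15 DAP in polysomal RNA, against 8.18, 8.77 and 8.09 at 12 DAP, a difference of 1.57 ± 0.31. In total RNA it had 10.00, 10.10 and 9.84 at 15 DAP, against 8.41, 9.19 and 7.12 at 12 DAP, a difference of 1.74 ± 0.49. The stages did not overlap in either fraction, and the 3 total RNA arrays of 12 DAP were the most scattered of its groups, with an SD of 1.0.

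ATG8D passed the threshold in total RNA and not in polysomal RNA. Its total RNA log2 levels were 6.88, 7.13 and 6.70 at 15 DAP, against 5.58, 4.93 and 4.97 at 12 DAP, without overlap, a difference of 1.74 ± 0.34. In polysomal RNA they were 7.36, 7.28 and 7.07 at 15 DAP, against 7.63, 7.22 and 6.81 at 12 DAP, with full overlap and a difference of 0.02 ± 0.33. The difference between the fractions in this change, polysomal minus total, was -1.72 ± 0.47 and did not pass the threshold.

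The remaining members had smaller early differences. ATG8A averaged 7.01 ± 0.071 at 15 DAP, against 5.64 ± 0.60 at 12 DAP in polysomal RNA (SD, n = 3), and 6.72 ± 0.15, against 5.13 ± 0.54 in total RNA. ATG8E averaged 5.88 ± 0.13 at 15 DAP, against 5.05 ± 0.33 at 12 DAP in polysomal RNA, and 5.36 ± 0.35, against 4.21 ± 0.39 in total RNA. ATG8C averaged 5.82 ± 0.10 at 15 DAP, against 4.98 ± 0.50 at 12 DAP in polysomal RNA, and 5.33 ± 0.32, against 4.64 ± 0.25 in total RNA. None of these 3 overlapped between the stages. Their log2 differences were 1.37 ± 0.36, 0.83 ± 0.31 and 0.83 ± 0.34 in polysomal RNA for ATG8A, ATG8E and ATG8C, and 1.59 ± 0.36, 1.15 ± 0.35 and 0.69 ± 0.33 in total RNA, of which the ATG8C values did not pass. ATG8B overlapped in both fractions, with 4.99, 5.18 and 5.17 at 15 DAP, against 5.22, 4.12 and 5.60 at 12 DAP in polysomal RNA. Its total RNA levels were 4.84, 4.29 and 4.48 at 15 DAP, against 4.03, 3.66 and 4.62 at 12 DAP.

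Counted with limma over all 27827 loci at a Benjamini-Hochberg adjusted p of 0.05, 6 of the 9 members rose in polysomal RNA between 12 and 15 DAP (ATG8A, ATG8E, ATG8F, ATG8G, ATG8H and ATG8I) and 0 fell. Over all loci 29.4% rose and 39.4% fell in that comparison. In total RNA 7 members rose, the same 6 and ATG8D, and 0 fell, where 20.5% of all loci rose and 19.4% fell. The median member difference was 1.37 in polysomal and 1.74 in total RNA, against -0.514 and -0.318 over all loci. The replicates of the stages did not overlap for 7 members in polysomal RNA and 8 in total RNA, where 73.9% and 52.7% of all loci did not. ATG8E's polysomal call was lost without polysomal 12 DAP replicate 1 (0.67) or any 15 DAP replicate (0.86, 0.76 and 0.87 without replicates 1, 2 and 3). Its total RNA call was lost without total 12 DAP replicate 2 (1.01) or 3 (1.06), or 15 DAP replicate 1 (1.29), 2 (1.20) or 3 (0.95). ATG8F's total RNA call was lost without total 15 DAP replicate 1 (1.72) or 2 (1.68), and ATG8C's polysomal difference passed without polysomal 12 DAP replicate 1 (1.03). The share of all loci called fell as well, except in total RNA without total 12 DAP replicate 1 (40.8%). With an array left out it was 53% to 68.4% in polysomal and 27.3% to 40.8% in total RNA, against 68.8% and 39.9% with every array.

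How far the early differences held depended on how the arrays were scaled to one another. ATG8G and ATG8H rose in both fractions as deposited and after median centring, quantile normalization and cyclic loess. Their smallest differences, all after cyclic loess, were 2.11 for ATG8G and 1.56 for ATG8H in polysomal RNA, and 1.25 and 2.67 in total RNA. ATG8I passed under every scaling but cyclic loess, where it differed by 1.27 in polysomal and 1.11 in total RNA. ATG8D in polysomal RNA fell by 1.46 after quantile normalization and by 1.94 after cyclic loess, although it differed by only 0.02 as deposited. After cyclic loess ATG8A and ATG8F in polysomal RNA were at -0.49 and -0.71 and ATG8F in total RNA at -0.51, and ATG8E in polysomal RNA was at -0.12 after quantile normalization and -0.33 after cyclic loess, so these signs turned. In polysomal RNA 7 members rose and 0 fell after median centring, 3 rose and 1 fell after quantile normalization and 2 rose and 1 fell after cyclic loess, the one that fell being ATG8D. In total RNA 8, 5 and 2 rose and 0 fell. The member median became 1.91, 0.0258 and -0.328 in polysomal and 2.02, 1.31 and 0.302 in total RNA, in the same order of scalings. The median over all loci moved to 0.0216, -0.0687 and -0.00658 in polysomal and to -0.0312, -0.0366 and 0.0137 in total RNA. The all-locus shares became 36.3%, 11.3% and 8.62% higher with 20.4%, 8.62% and 11.1% lower in polysomal RNA, and 24.3%, 13.6% and 6.61% higher with 12.2%, 11.1% and 10.1% lower in total RNA.

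**Figure D2:**
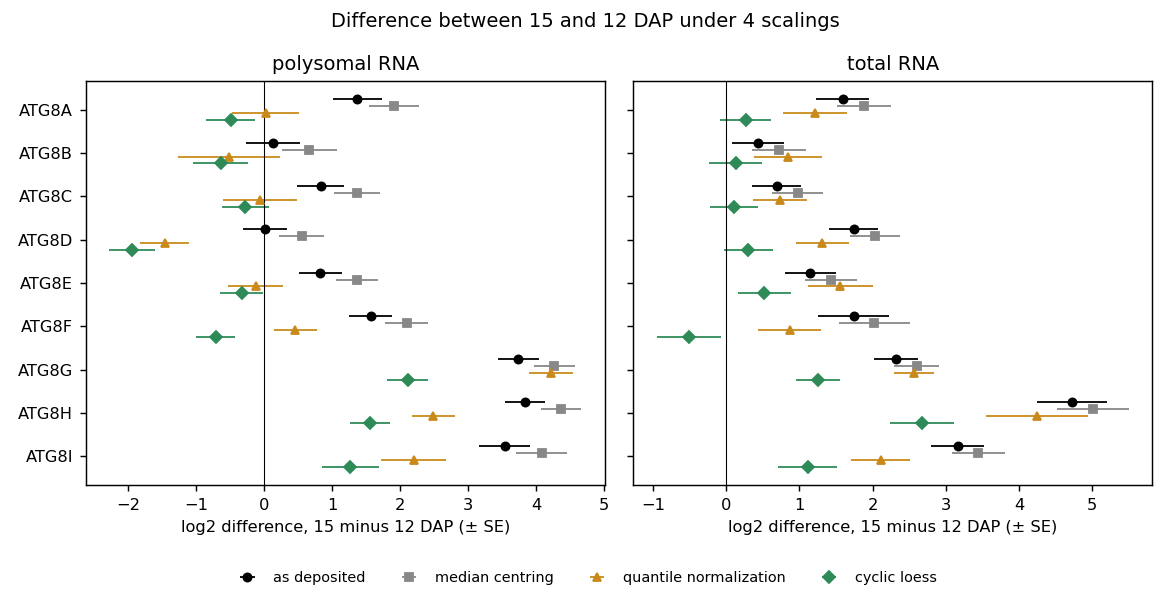
Log2 difference between 15 and 12 DAP (horizontal axis, ± SE) for each ATG8 member in polysomal RNA (left) and total RNA (right) under 4 scalings of the arrays. ATG8G and ATG8H stay above 1 under each scaling in both fractions, whereas ATG8F lies at 1.57 in polysomal RNA as deposited and at -0.71 after cyclic loess.

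Markers of seed coat, silique and endosperm, tissues that seed samples can hold, moved in the same interval as deposited. They were not refitted under the other scalings. Over all loci 39.4% fell in polysomal and 19.4% in total RNA. The array medians were 3.67 to 3.68 at 15 DAP, against 4.21 to 4.22 at 12 DAP in polysomal RNA, and 3.92 to 3.98, against 4.20 to 4.26 in total RNA. Seed coat markers fell for 3 of 5 loci in polysomal and 5 of 5 in total RNA, and their mean level was 2.68 to 2.95 at 15 DAP, against 4.47 to 5.58 at 12 DAP in polysomal RNA, and 2.88 to 3.32, against 5.95 to 6.38 in total RNA. Silique markers fell for 5 of 5 and 3 of 5 loci, with 2.26 to 2.72, against 4.23 to 4.72 in polysomal and 2.68 to 3.01, against 3.76 to 5.48 in total RNA. Endosperm markers fell for 3 of 3 loci in both fractions, with 2.18 to 2.55, against 4.47 to 5.70 in polysomal and 2.14 to 2.33, against 4.10 to 5.04 in total RNA. Their part in the ATG8 differences was not tested. In whole seeds, a change in the number of cells of a type and a change in RNA per cell cannot be told apart.

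After 15 DAP the members took different directions, and every stage difference as deposited was under 1 log2 unit. In total RNA, ATG8F had 10.53, 10.56 and 10.48 at 20 DAP, against 10.00, 10.10 and 9.84 at 15 DAP. ATG8G had 7.18, 7.18 and 6.94 at 20 DAP, against 6.62, 6.72 and 6.44 at 15 DAP. ATG8B had 5.65, 5.21 and 5.08 at 20 DAP, against 4.84, 4.29 and 4.48 at 15 DAP. Each of these 3 was higher at 20 DAP on every array. They rose by 0.54 ± 0.13, 0.50 ± 0.15 and 0.78 ± 0.25 in the order named, and were the only members to pass in total RNA, where 11.5% of all loci rose and 7.7% fell. ATG8H had 9.59, 9.62 and 9.58 at 20 DAP, against 9.88, 10.00 and 9.94 at 15 DAP, again without overlap, but its difference of -0.34 ± 0.12 did not pass. The other 5 members differed by -0.34 (ATG8D) to -0.02 (ATG8E).

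In polysomal RNA the members that fell were those of the ATG8H and ATG8I clade. ATG8H had 9.53, 9.36 and 9.56 at 20 DAP, against 9.90, 10.13 and 10.03 at 15 DAP, and fell by 0.54 ± 0.12 on the log2 scale. ATG8I had 9.08, 9.13 and 8.84 at 20 DAP, against 9.57, 9.56 and 9.44 at 15 DAP, and fell by 0.50 ± 0.15. Neither overlapped between the stages. Among all loci 5.4% fell and 7.18% rose, and 0 of the 9 members rose. The other 7 members differed by -0.25 (ATG8D) to 0.53 ± 0.25 (ATG8B), and ATG8B's 5.62, 5.85 and 5.46 at 20 DAP lay above its 4.99, 5.18 and 5.17 at 15 DAP. Replicates did not overlap for 4 of the 9 members in each fraction, where 34.3% of all loci did not in polysomal and 31.1% in total RNA.

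These late calls varied in firmness. ATG8F in total RNA and ATG8H in polysomal RNA passed as deposited, under the 3 other scalings and without any single compared array. ATG8G's total RNA call was lost without total 15 DAP replicate 1 (0.52) or 3 (0.43) or 20 DAP replicate 1 (0.46) or 2 (0.46). ATG8B's was lost without total 15 DAP replicate 2 (0.66) or 3 (0.75) or 20 DAP replicate 1 (0.61) or 2 (0.83). After quantile normalization and cyclic loess ATG8G and ATG8B no longer passed, at 0.32 and 0.26 for ATG8G and 0.67 and 0.58 for ATG8B. ATG8I's polysomal call was lost without any one of the 6 compared arrays, at -0.56 to -0.41, and after median centring at -0.55. With an array left out, the share of all loci called was 7.69% to 9.62% in polysomal RNA, against 12.6% with every array. In total RNA it was 13.6% to 17.2%, against 19.2%. Over all loci the scaling also moved the split, to 4.6% higher and 5.29% lower in polysomal RNA after median centring and to 8.29% higher and 8.85% lower in total RNA after cyclic loess. With all 24 arrays in one fit, whose shared spread includes the 12 DAP arrays, 0 members passed in either fraction, with 3.37% of all loci called in polysomal and 5.06% in total RNA.

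**Figure D3:**
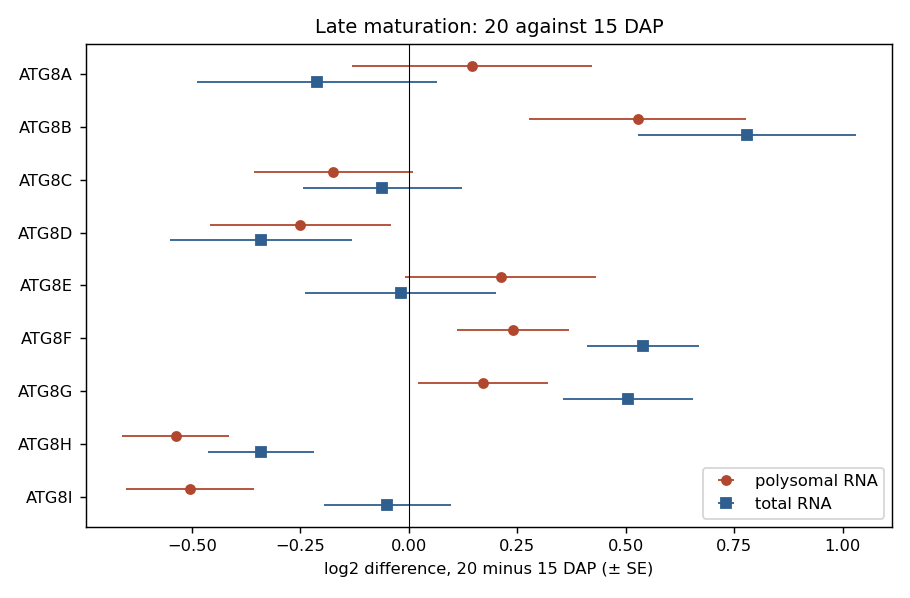
Log2 difference between 20 and 15 DAP (horizontal axis, ± SE) for each ATG8 member in polysomal RNA (circles) and total RNA (squares). ATG8B, ATG8F and ATG8G lie to the right of 0 in both fractions and ATG8H to the left in both, while ATG8I is at -0.50 in polysomal RNA and -0.05 in total RNA.

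The 2 steps of the late interval were also compared separately. Between 15 and 18 DAP ATG8F rose by 0.54 ± 0.13 in total RNA, with 10.45, 10.73 and 10.38 at 18 DAP, the only member to pass where 7.76% of all loci rose and 13.4% were called in either direction. ATG8H fell by 0.51 ± 0.12 in polysomal RNA, with 9.56, 9.51 and 9.46 at 18 DAP, the only member to pass where 5.08% of all loci fell and 11.7% were called in either direction. ATG8F's call was lost without total 18 DAP replicate 2 (0.43), and ATG8H's without polysomal 15 DAP replicate 2 (-0.45) or 18 DAP replicate 3 (-0.48). Between 18 and 20 DAP limma called 0 members in either fraction, and 0% of all loci in polysomal and 0.00719% in total RNA. At an unadjusted p under 0.05 these were 0 members in polysomal and 2 in total RNA, with 549 and 2275 loci. Of the other members called for 20 against 15 DAP in total RNA, ATG8B differed by 0.19 ± 0.25 between 15 and 18 DAP and by 0.59 ± 0.25 between 18 and 20 DAP, and ATG8G by 0.05 ± 0.15 and 0.46 ± 0.15. ATG8G, the member with non-overlapping total RNA replicates in the later interval, had 7.18, 7.18 and 6.94 at 20 DAP, against 6.64, 6.69 and 6.59 at 18 DAP.

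Polysomal and total RNA were then compared over the mean of 15, 18 and 20 DAP. On normalized arrays this ratio is relative to the other transcripts and does not give the share of a transcript that sat on polysomes. The family divided by member. ATG8A, ATG8B, ATG8C, ATG8D and ATG8E were higher in polysomal RNA by 0.50 ± 0.16, 0.67 ± 0.14, 0.34 ± 0.11, 0.40 ± 0.12 and 0.61 ± 0.13 on the log2 scale. ATG8F and ATG8I were lower by log2 differences of -0.25 ± 0.07 and -0.39 ± 0.08. ATG8G, at 0.06 ± 0.09, and ATG8H, at -0.04 ± 0.07, did not pass. The count was thus 5 higher and 2 lower, where 29.7% of all loci were higher and 23% lower, and it stayed at 7 without any one of the 18 arrays. As deposited, the median was 0.0506 over all loci, against 0.34 for the members.

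ATG8B was among the members higher in polysomal RNA. Its polysomal log2 levels at 15, 18 and 20 DAP were 4.99, 5.18 and 5.17, then 5.81, 5.97 and 5.70, then 5.62, 5.85 and 5.46. Its total RNA levels were 4.84, 4.29 and 4.48, then 5.34, 4.74 and 4.10, then 5.65, 5.21 and 5.08. The fractions did not overlap at 15 and 18 DAP and did at 20 DAP. ATG8E averaged 5.88 ± 0.13, 5.96 ± 0.22 and 6.09 ± 0.26 in polysomal RNA at the 3 stages and 5.36 ± 0.35, 5.41 ± 0.34 and 5.34 ± 0.27 in total RNA, without overlap at any of them. ATG8A averaged 7.01 ± 0.071, 6.99 ± 0.22 and 7.16 ± 0.095 in polysomal RNA, and 6.72 ± 0.15, 6.43 ± 0.77 and 6.51 ± 0.31 in total RNA. The low replicate 3 of total RNA at 18 DAP, at 5.54 for ATG8A, contributed, and without it ATG8A's difference was 0.35 ± 0.10.

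ATG8I lay on the other side. Its polysomal levels were 9.57, 9.56 and 9.44 at 15 DAP, 9.34, 9.10 and 9.03 at 18 DAP and 9.08, 9.13 and 8.84 at 20 DAP. In total RNA it had 9.69, 9.76 and 9.66, then 9.63, 9.64 and 9.26, then 9.58, 9.77 and 9.61. The polysomal arrays lay below the total RNA arrays at 15 and 20 DAP and overlapped them at 18 DAP. ATG8F polysomal levels were 10.21, 10.21 and 10.20 at 18 DAP and 10.09, 10.20 and 10.16 at 20 DAP, and each lay below the 10.38 to 10.73 and 10.48 to 10.56 of total RNA at those stages, while the fractions overlapped at 15 DAP.

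By single stage fewer members passed. At 15 DAP 0 of 9 were called with limma, where 31.1% of all loci were called. At an unadjusted p under 0.05 there were 3 members and 11951 of the 27827 loci. At 18 DAP ATG8B was higher in polysomal RNA by 1.10 ± 0.25, with 24.7% of all loci called. At 20 DAP ATG8E was higher by 0.76 ± 0.22 and ATG8I lower with a difference of -0.64 ± 0.15, with 14.9% of all loci called. ATG8E's 20 DAP call was lost without polysomal 20 DAP replicate 1 (0.63) or 2 (0.75) or total 20 DAP replicate 1 (0.67) or 2 (0.69). Without total 15 DAP replicate 1 ATG8C passed at 15 DAP (0.67), and without replicate 3 ATG8E did (0.72). The split of all loci, 17.4% higher and 13.6% lower at 15 DAP as deposited, became 33.9% and 9.24% after median centring and 8.25% and 10.4% after cyclic loess. At 18 DAP ATG8A passed without total replicate 1 (0.81), and ATG8I without total replicate 3 (-0.48).

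The fraction differences varied with the scaling. ATG8B was higher in polysomal RNA as deposited (0.67) and after median centring (0.87), quantile normalization (0.41) and cyclic loess (0.36). ATG8I was lower at -0.39, -0.19, -0.43 and -0.47 in the same order, and did not pass after median centring. ATG8A, ATG8D and ATG8E kept a positive difference under each scaling but did not pass after quantile normalization or cyclic loess, and ATG8C was at 0.045 and -0.02 there. ATG8F was at -0.05 after median centring, and ATG8G was called higher there (0.26) but lower after quantile normalization (-0.20) and cyclic loess (-0.31). The split of all loci became 43.9% higher and 15.3% lower after median centring, which moved their median to 0.249, and 24.1% and 16.5% after quantile normalization. The member median was 0.539 after median centring. After quantile normalization it was 0.0453, against 0.0764 over all loci, and after cyclic loess -0.02, against 0.0209. With all 24 arrays in one fit, 2 members (ATG8B and ATG8E) passed, with 34.6% of all loci called.

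**Figure D4:**
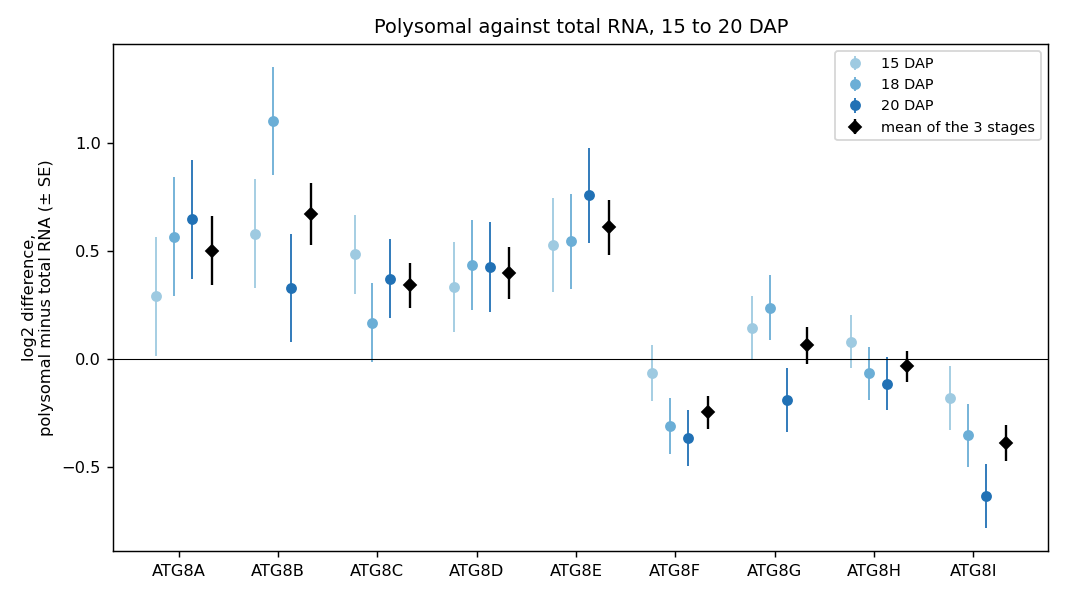
Log2 difference of polysomal minus total RNA (vertical axis, ± SE) for each ATG8 member at 15, 18 and 20 DAP (circles, light to dark) and over the mean of the 3 stages (diamonds). The diamonds of ATG8A to ATG8E lie between 0.34 and 0.67, those of ATG8G and ATG8H lie near 0, and those of ATG8F and ATG8I lie at -0.25 and -0.39.

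At 12 DAP ATG8D differed between the fractions, with polysomal levels of 7.63, 7.22 and 6.81, against 5.58, 4.93 and 4.97 in total RNA. It was the only member called, 2.06 ± 0.48 higher in polysomal RNA, where 0.906% of all loci were higher and 4.75% lower. ATG8G lay on the opposite side without overlap, at 2.94, 2.99 and 3.05 in polysomal RNA, against 4.21, 4.28 and 4.34 in total RNA, and its difference of -1.28 ± 0.46 did not pass. The ATG8D call was lost without polysomal 12 DAP replicate 1 (1.85) or 2 (2.06) or total 12 DAP replicate 2 (1.94) or 3 (1.96), while it held under each scaling. With all 24 arrays in one fit 3 members were called higher and 1 lower, where 16% of all loci were higher and 15.4% lower.

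The change of the fraction difference with stage was fitted as an interaction. Between 15 and 20 DAP limma called 0 members, where 0.0791% of all loci were called. At an unadjusted p under 0.05 there were 3025 of the 27827 loci and 1 member. That member was ATG8I, whose ratio change was -0.46 ± 0.21 on the log2 scale, named after its value was seen. Between 12 and 15 DAP 0 members were called as well, with 2.9% of all loci called. At an unadjusted p under 0.05 there were 5399 of the 27827 loci and 2 members. These members were ATG8D, at -1.72 ± 0.47, and ATG8G, at 1.42 ± 0.42. ATG8D passed without polysomal 12 DAP replicate 3 or without total 12 DAP replicate 1, at -1.93 in both cases. It also passed after quantile normalization (-2.76) and cyclic loess (-2.24), and ATG8G after median centring (1.67). In simulated data with few changed loci, 17% of planted ratio changes of 1 log2 unit were recovered between 15 and 20 DAP. The absence of a call is therefore weak evidence there. Between 12 and 15 DAP 0% were recovered. That simulation had 0 calls and so a stricter adjusted threshold than these data, where 2.9% of all loci were called. Its 0% does not give the power of this fit, and an absent call is still no evidence of no change.

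Within each member the 8 groups could be ordered. Total RNA of 12 DAP was lowest for ATG8A, ATG8B, ATG8C, ATG8D, ATG8E, ATG8F and ATG8H, and polysomal RNA of 12 DAP for ATG8G and ATG8I. For ATG8F, ATG8G, ATG8H and ATG8I both 12 DAP groups lay below every later group, and the upper of them did not overlap the lowest later group. The highest group was polysomal RNA of 20 DAP for ATG8A (7.16) and ATG8E (6.09), of 18 DAP for ATG8B (5.83), and of 15 DAP for ATG8C (5.82), ATG8D (7.24) and ATG8H (10.02). It was total RNA of 18 DAP for ATG8F (10.52, level with 10.52 at 20 DAP), of 20 DAP for ATG8G (7.10) and of 15 DAP for ATG8I (9.70). Neighbours in these orders mostly overlapped: for ATG8A and ATG8B every neighbouring pair did. For ATG8H the pair of 15 DAP groups at the top was set apart from the 18 and 20 DAP groups, which overlapped their neighbours.

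The members were partly alike over the arrays. Over all 24 arrays the 36 pairs of members correlated at r = 0.227 to 0.951, with a median of 0.69, and these arrays include the step from 12 DAP to the later stages. Over the 18 later arrays the range was -0.633 to 0.718 with a median of 0.0724, and 16 pairs were below 0. For ATG8A with ATG8D and with ATG8B, and ATG8B with ATG8G, r was higher over the 18 arrays (0.713, 0.631 and 0.576) than over the 24 (0.639, 0.542 and 0.404). ATG8A with ATG8C (0.718) and ATG8A with ATG8D (0.713) were among the most alike there, ATG8H with ATG8I reached 0.56, and ATG8F with ATG8H was the least alike at -0.633. The points of each correlation share arrays and their scaling, and are a description only.

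The loci most like each member were found by Pearson r over the 24 arrays. They were AT5G11680 for ATG8H (0.994, and 0.864 over the 18 later arrays), AT1G19490 for ATG8G (0.99 and 0.44) and AT5G43770 for ATG8I (0.98 and 0.713). For ATG8F the closest was AT1G33640 (0.978 and 0.953), for ATG8A AT5G36210 (0.944 and 0.763) and for ATG8E CF9 (0.939 and 0.828). For ATG8D it was MGL (0.929 and 0.926), for ATG8C VIP3 (0.924 and 0.774) and for ATG8B AT4G10360 (0.892 and 0.877). The second closest loci were AT5G39520 for ATG8H (0.992), AT3G47080 for ATG8G (0.989), AT1G19540 for ATG8I (0.978), AT1G27385 for ATG8F (0.97) and UBC22 for ATG8A (0.943). They were GCT for ATG8E (0.938), VDAC3 for ATG8D (0.919), AT3G58730 for ATG8C (0.915) and NTH2 for ATG8B (0.89). Other members of the family ranked far below these, the closest being ATG8G at place 175 among the loci most like ATG8I.

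The rest of the autophagy machinery was represented by 52 loci in 6 lists, of which 38 have a gene name in the RefSeq table and the others are given by locus. Between 12 and 15 DAP 38 of the 52 rose and 3 fell in polysomal RNA, with a median difference of 1.62, and 31 rose and 2 fell in total RNA, with a median of 1.41. Over all loci 29.4% rose and 39.4% fell in polysomal RNA, and 20.5% rose and 19.4% fell in total RNA. These counts varied with the scaling: in polysomal RNA 43 rose and 2 fell after median centring, 9 rose and 1 fell after quantile normalization, and 5 rose and 3 fell after cyclic loess, where the median was -0.0722. In total RNA 35 rose and 2 fell, 18 rose and 2 fell, and 3 rose and 1 fell in the same order. In the ATG8 conjugation list 6 of 9 loci rose in polysomal and 4 of 9 in total RNA. ATG7, the enzyme that activates ATG8, rose by 1.71 ± 0.46 in total RNA (limma adjusted p = 0.015), and ATG12A, whose protein joins ATG5, by 1.79 ± 0.42 (adjusted p = 0.0076). ATG10, which transfers ATG12 to ATG5, rose by 1.44 ± 0.38 in polysomal RNA (adjusted p = 0.0081) and AT5G50230 by 2.97 ± 0.31 (adjusted p = 8.4e-05). After cyclic loess only AT5G50230 of these 4 passed, at 1.13. After quantile normalization 1 of the 9 conjugation loci rose in each fraction. ATG7 in total RNA (1.98) and ATG10 in polysomal RNA (1.36) did not pass there.

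In the PI3 kinase complex, which marks the forming autophagosome membrane, 5 of 6 loci rose in each fraction. ATG6 rose by 2.97 ± 0.31 in polysomal RNA (limma adjusted p = 8.9e-05) and by 2.49 ± 0.45 in total RNA (adjusted p = 0.0021). VPS34, the lipid kinase, rose by 2.96 ± 0.35 in polysomal RNA and VPS15, its partner kinase, by 2.39 ± 0.33 in total RNA, and after cyclic loess none of these passed. After quantile normalization 3 of the 6 loci rose in each fraction, and ATG6 in total RNA (2.2) did not pass. Of the ATG9, ATG2 and ATG18 list, whose proteins serve the supply of lipid to the membrane, 8 of 10 rose and 1 fell in polysomal RNA and 7 rose in total RNA. ATG9, the membrane protein of the pathway, rose by 2.57 ± 0.40 in total RNA (adjusted p = 0.00098), and by 1.84 after cyclic loess, which was also called. ATG18H rose by 2.48 ± 0.31 in total RNA, and ATG18G and ATG18F by 3.10 ± 0.35 and 2.96 ± 0.36 in polysomal RNA, none of which passed after cyclic loess. After quantile normalization 4 of the 10 loci of this list rose in each fraction.

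The upstream kinase complex, which starts autophagosome formation, was the list with the lowest total RNA median, 0.67, with 3 of 8 loci higher and 1 lower there, and 5 higher and 0 lower in polysomal RNA. Its ATG13A, a subunit of the ATG1 kinase complex, was the locus that fell, with a total RNA difference of -1.98 ± 0.33 (limma adjusted p = 0.0015), and it was also called lower under the 3 other scalings. AT3G18770 rose by 2.13 ± 0.37 in polysomal and 1.75 ± 0.34 in total RNA, and ATG11, a scaffold of the complex, by 1.99 ± 0.35 in polysomal RNA, none of them called after cyclic loess. After quantile normalization 0 of the 8 loci were called in polysomal RNA, with AT3G18770 at 1.22 and ATG11 at 0.70. In total RNA 1 was higher and 1 lower there. Of the ATG8-binding proteins 8 of 11 rose and 1 fell in each fraction. ATI1, an ATG8-interacting membrane protein, rose by 3.19 ± 0.39 in polysomal RNA and passed after cyclic loess too, at 1.21. TSPO, a stress-induced membrane protein, rose by 2.90 ± 0.54 in polysomal and 2.85 ± 0.35 in total RNA, and RPN10, a proteasome subunit that is also an autophagy receptor, by 2.85 ± 0.46 in total RNA, none of them called after cyclic loess. After quantile normalization TSPO in polysomal RNA (1.86) did not pass. Of the 11 loci 1 was then higher and 1 lower in polysomal RNA, and 6 higher and 1 lower in total RNA. Among the upstream regulators 6 of 8 rose and 1 fell in polysomal RNA and 4 rose in total RNA. KING1, a SnRK1 kinase subunit, rose by 2.67 ± 0.38 in polysomal and 2.72 ± 0.34 in total RNA. RAPTOR1, a partner of the TOR kinase that represses autophagy, rose by 2.17 ± 0.30 and 2.20 ± 0.31. After cyclic loess neither passed, and RAPTOR1 in polysomal RNA was at -0.0858. After quantile normalization 0 of the 8 regulators were called in polysomal RNA, with KING1 at 1.27 and RAPTOR1 at 0.68, and 3 rose in total RNA.

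Between 15 and 20 DAP, 6 of the 52 loci rose in polysomal RNA and 20 in total RNA, and 0 fell in either, where 7.18% and 11.5% of all loci rose. The medians were 0.17 and 0.477, against -0.0145 and 0.00292 over all loci. The polysomal count was 3 without polysomal 15 DAP replicate 2 or 3 or 20 DAP replicate 1, where 8.38%, 8.27% and 7.69% of all loci were called. The total RNA count was 9 without total 15 DAP replicate 3 (16.1% of all loci called) and 13 without 20 DAP replicate 1 (13.6%) or 2 (15.8%). With all 24 arrays in one fit they were 1 and 4, where 1.66% and 2.75% of all loci rose. By list in total RNA, 6 of 10 loci of the ATG9, ATG2 and ATG18 list rose, 5 of 8 upstream regulators, 3 of 6 of the PI3 kinase complex, 3 of 9 conjugation loci, 2 of 11 ATG8-binding proteins and 1 of 8 of the upstream kinase complex. In polysomal RNA the counts were 1, 3, 2, 0, 0 and 0 in the same order.

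KING1 rose by 0.90 ± 0.16 in polysomal RNA (limma adjusted p = 0.0012) and by 1.29 ± 0.16 in total RNA (adjusted p = 4.3e-05). TGA9, a bZIP transcription factor, rose by 1.01 ± 0.20 in polysomal RNA (adjusted p = 0.0036) and 0.99 ± 0.20 in total RNA (adjusted p = 0.0032). Both passed in both fractions under the 3 other scalings. ATI1 rose by 1.20 ± 0.15 in total RNA (adjusted p = 5.3e-05), ATG2, a lipid transfer protein, by 1.05 ± 0.19 (adjusted p = 0.0012) and ATG18B by 0.91 ± 0.24 (adjusted p = 0.016), each called under the other scalings too. VPS15 rose by 0.70 ± 0.15 in polysomal RNA (adjusted p = 0.0046), VPS34 by 0.51 ± 0.16 (adjusted p = 0.048) and ATG18A by 0.46 ± 0.14 (adjusted p = 0.039), of which VPS34 and ATG18A did not pass after median centring. In total RNA ATG10 rose by 0.89 ± 0.28, ATG101 by 0.54 ± 0.16, AT2G32760 by 0.89 ± 0.25, AT1G77890 by 0.72 ± 0.22, AT3G59950 by 0.73 ± 0.22 and AT5G42000 by 0.55 ± 0.17, with adjusted p values of 0.018 to 0.039. None of these 6 passed after cyclic loess.

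In the comparison of fractions over 15 to 20 DAP, 34 of the 52 loci were higher in polysomal RNA and 2 were lower, with a median of 0.433, where 29.7% and 23% of all loci were higher and lower. The 2 lower loci were ATG18E, at -1.86 ± 0.18 (limma adjusted p = 1.3e-06), and EXO70B2, an exocyst subunit that binds ATG8, at -0.76 ± 0.16 (adjusted p = 0.001). Both were called lower under the 3 other scalings. Of those higher, ATG18B was at 1.08 ± 0.14 (adjusted p = 1.9e-05), ATG10 at 0.99 ± 0.16 (adjusted p = 0.00014), ATG7 at 0.82 ± 0.16 (adjusted p = 0.00054) and TGA9 at 0.82 ± 0.12 (adjusted p = 4.6e-05). TOR was at 0.70 ± 0.09, VPS15 at 0.73 ± 0.08, AT2G32760 at 0.76 ± 0.14, ATG13A at 0.68 ± 0.13 and the cargo receptor NBR1 at 0.49 ± 0.08. These 9 loci were called higher under the 3 other scalings, and AT3G53930, at 0.69 ± 0.18, only after median centring among them. By list, 6 of 8 of the upstream kinase complex, 7 of 10 of the ATG9, ATG2 and ATG18 list, 3 of 6 of the PI3 kinase complex, 6 of 9 conjugation loci, 6 of 11 ATG8-binding proteins and 6 of 8 upstream regulators were higher. The total became 25 higher and 4 lower after quantile normalization, 18 and 5 after cyclic loess (19.5% and 20.2% of all loci) and 42 and 2 after median centring.

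**Figure D5:**
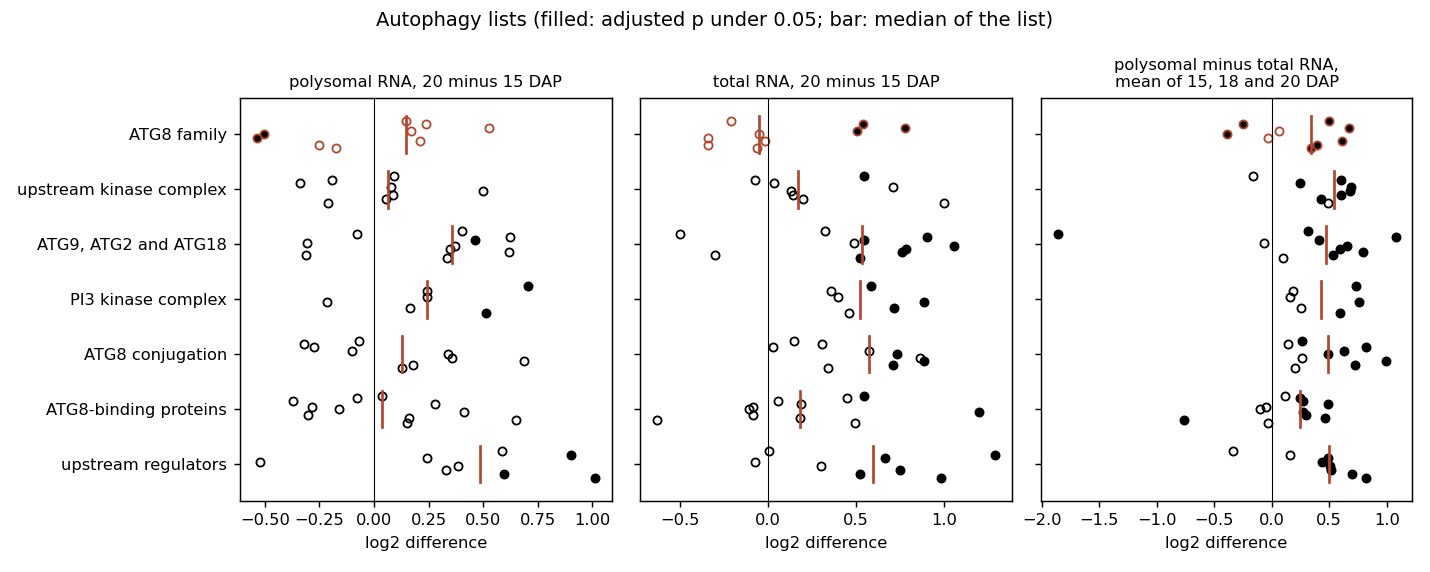
Log2 differences (horizontal axis) of the 9 ATG8 loci and of 52 other autophagy loci in 6 lists, for 20 against 15 DAP in polysomal and in total RNA and for polysomal against total RNA over 15 to 20 DAP; each circle is a locus, filled circles passed an adjusted p of 0.05, and bars are list medians. In total RNA the ATG8 median is -0.05 and the upstream regulator median 0.594, and the single point far to the left in the right panel is ATG18E at -1.86.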

How the data were processed

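The deposited table holds log2 values of 27827 loci on 24 arrays, made by the authors with RMA, per the submitters' processing notes. Array design, RMA version, genome build and which arrays were normalized together are not given in the sources used here. Groups came from sample titles. Names were looked up by locus in RefSeq (TAIR10.1), which held 27241 loci. Arrays give no count depth, and 3 per group limit the precision.

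Differences were fitted by limma 3.58.1 (lmFit, contrasts.fit, eBayes) under R 4.3.3, and p-values adjusted over all loci after Benjamini and Hochberg, threshold 0.05. Comparisons within 15 to 20 DAP used the 18 later arrays (12 residual degrees of freedom), and those with 12 DAP used only the groups compared (4 or 8). Scripts were tested on simulated data with the replicate spread of these arrays and few changed loci. Of planted changes of 1 and 2 log2 units, 0% were recovered in every comparison with 12 DAP. For 20 against 15 DAP, 52% and 95% were recovered in polysomal and 44% and 92% in total RNA. For the ratio change of 20 against 15 DAP it was 17% and 71%, with 10 of 98 calls false. For that ratio change, with 0.0791% of all loci called in the data, an absent call therefore says little. With few changed loci the adjusted threshold is stricter than where many are called. For 15 against 12 DAP 68.8% of all loci were called in polysomal and 39.9% in total RNA. The simulated recovery does not give the power of such fits, and an absent call there is still no evidence of no change. Named were all 9 members, per autophagy list the 2 loci with the largest called difference in each of 5 comparisons, and per member the 2 loci with the highest r. Members, lists and the separate fits were chosen with earlier results of these data known. No filter on dim loci was applied. Alternatives were 3 other scalings, all arrays in one fit, a dim filter (lowest 25% left out), a replicate block, array weights and leaving out each array; for 7 of the 15 comparisons they were added after the data were seen. Replicate numbers were not taken to pair samples: deviations of 84 same-numbered pairs correlated at -0.0594 to 0.244. The labels call the replicates biological. No sequences or coordinates are given.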

Additional observations from a re-analysis of the deposited data

How the results depend on the processing

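Of 1971 alternative values of single ATG8 members, 1822 moved by less than the replicate SD, but most settings could hardly move them further. Leaving out 1 of 3 arrays, the source of 1024 of the 1822, shifts a group mean little relative to that SD. The fit of all arrays, the dim filter and the replicate block leave the difference itself unchanged. Of 143 values that moved further, 141 came from settings other than leaving out an array. The sign differed in 6 of a called difference and 95 of an uncalled one. The 6 were, for 15 against 12 DAP, ATG8A (-0.489), ATG8E (-0.328) and ATG8F (-0.711) in polysomal RNA after cyclic loess, ATG8E there after quantile normalization (-0.121) and ATG8F in total RNA after cyclic loess (-0.509), and ATG8C between fractions after cyclic loess (-0.020). The counts that follow are calls in either direction, with the share of all loci called under the same setting in parentheses. For 15 against 12 DAP, cyclic loess gave 3 members in polysomal RNA, 2 higher and 1 lower (19.7%), and 2 higher in total RNA (16.7%), with 8 other autophagy loci, 5 higher and 3 lower, and 4, 3 higher and 1 lower. Quantile normalization gave 10 (19.9%) and 20 (24.7%) other loci. For 20 against 15 DAP in polysomal RNA, members numbered 0 with all arrays in one fit (3.37%) and 1 after median centring (9.89%), and other loci 1 and 3 there and 19 with array weights (24.5%). In total RNA members were 1 after quantile normalization (17.6%) and 0 with all arrays (5.06%), and other loci 10 after cyclic loess (17.1%) and 4 with all arrays. Between fractions over 15 to 20 DAP, members were 3 after quantile normalization (40.6%) or cyclic loess (39.7%) and 2 with all arrays (34.6%), and other loci 23 after cyclic loess. At 12 DAP, all arrays gave 4 (31.4%). The ratio change of 15 against 12 DAP had 1 member after quantile normalization (1.7%), cyclic loess (1.28%), median centring (3.85%) or the dim filter (3.93%), and 2 with all arrays (13.1%). For 18 against 15 DAP, polysomal RNA had 2 after quantile normalization (10.5%) or cyclic loess (12%), 3 with array weights (22.7%) and 0 with all arrays (2.67%), and total RNA 2 after cyclic loess (13%) or the dim filter (19.7%) and 0 with all arrays (2.59%). Between fractions at 15 DAP, median centring gave 3 (43.1%), array weights 1 (30.4%) and the dim filter 1 (41%). At 18 DAP, quantile normalization gave 0 (13.4%), cyclic loess 2 (14.1%), median centring 2 (30.9%) and array weights 2 (25.3%). At 20 DAP, quantile normalization gave 1 (7.51%), median centring 1 (17.8%), array weights 4 (25.6%) and all arrays 0 (3.59%). The dim filter tests fewer loci and the fit of all arrays shares a spread with the 12 DAP arrays. Otherwise the cause was not tested.

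With the replicate number as a block, 1 member was called between fractions at 15 DAP (31.8%) and 2 at 18 DAP (25.8%), ATG8E did not pass in polysomal RNA for 15 against 12 DAP, and no other member count moved by over 1.5 times. Of 84 same-numbered pairs 7 correlated above 0.1, and in 0 of 28 pairs of groups did all. Each compared array was left out in turn. For 15 against 12 DAP, members called ranged over 5 to 6 in polysomal and 5 to 7 in total RNA. They ranged over 1 to 1 and 1 to 3 for 20 against 15 DAP, and 0 to 1 in each fraction for 18 against 15 DAP. The share of all loci called moved too. For 15 against 12 DAP it was 53% to 68.4% in polysomal and 27.3% to 40.8% in total RNA, against 68.8% and 39.9% with every array. For 20 against 15 DAP it was 7.69% to 9.62% and 13.6% to 17.2%, against 12.6% and 19.2%. The ranges of members called were 0 to 0 in both fractions for 20 against 18 DAP and for the 20 against 15 DAP ratio change. For the 15 against 12 DAP ratio change the range was 0 to 1. Between fractions the member ranges were 7 to 7 over 15 to 20 DAP, and 0 to 1, 0 to 1, 1 to 2 and 1 to 2 at 12, 15, 18 and 20 DAP. With every array, 52.7% of all loci were called over 15 to 20 DAP. At 15, 18 and 20 DAP it was 31.1%, 24.7% and 14.9%, and at 12 DAP 0.906% higher and 4.75% lower. It was 11.7% in polysomal and 13.4% in total RNA for 18 against 15 DAP, and 2.9% for the 15 against 12 DAP ratio change. Shares with an array left out are not given for these comparisons. Other autophagy loci ranged over 34 to 42 in polysomal and 26 to 35 in total RNA for 15 against 12 DAP, 3 to 5 and 9 to 19 for 20 against 15 DAP, and 34 to 37 between fractions over 15 to 20 DAP.

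Seed coat, silique and endosperm markers and array spread moved with the 12 DAP comparisons. With 3 arrays per group and no detection calls, low levels such as ATG8G at 12 DAP could not be set against background.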
